A study of Mus musculus with 12 samples.

Results

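Expression of the constitutive proteasome genes was followed on 12 Affymetrix Mouse Gene ST 1.0 arrays of CD4+ T cells with Foxp3 in its wild-type (WT), M354 or M176 version, the transcription factor that specifies regulatory T cells (Tregs). The genes are those whose symbol begins with Psma, Psmb, Psmc, Psmd, Psme, Psmf or Psmg and a digit, without the immunoproteasome genes Psmb8, Psmb9 and Psmb10 and without pseudogenes. They came to 39 of the 16426 genes with a probe set of their own. Of these, 35 were bright enough to be tested, and 34 of the 35 lay above the median of the array on all 12 arrays; Psmd9 did so on 11. The 4 that were not tested, with at most 105.4 on any array, are Psma8, the testis form of an alpha subunit, Psmb11, the form of the thymic cortex, Psmg3, an assembly chaperone, and Psmc3ip, a recombination factor that is no proteasome subunit. Psmb6, Psmc5, Psmd1, Psmd3, Psmd11, Psmd12, Psme3 and Psme4 are not analysed here.

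The proteasome is the protease that degrades proteins tagged with ubiquitin. Its core particle (20S) is a barrel of outer rings of alpha subunits, which form the gate, and inner rings of beta subunits, 3 of which cut peptide bonds. The regulatory particle (19S) caps the barrel: its base holds a ring of ATPases that unfold the substrate, and its lid holds the enzyme that removes ubiquitin. Dedicated chaperones assemble both particles. The subunits are needed in fixed proportions, and in mammalian cells their genes are known to be raised together by Nfe2l1 when proteasome activity falls. In lymphocytes, interferon-inducible beta subunits can replace the catalytic ones to form the immunoproteasome.

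The arrays form 6 groups of 2, all from male C57Bl/6 mice aged 6 weeks. The Treg groups (Tr) are CD4+TCRb+CD25+ spleen cells, sorted a second time as CD25-high, from mice of the genotype Foxp3(WT/WT), Foxp3(M354/M354) or Foxp3(M176/M176). The transduced groups (Td) are conventional CD4+ T cells (Tcons) of WT mice that received WT, M354 or M176 Foxp3 by retrovirus and were sorted as THY1.1-high, the mark of a transduced cell. A group of cells transduced without Foxp3 is not analysed here, so each mutant is compared with WT Foxp3 in the same kind of cell. Whether both arrays of a group stand for separate mice or cultures is not stated, so p-values measure the spread between these arrays, which may be technical. The sources used here do not name the amino acid changes behind M354 and M176. A gene was called changed at an adjusted p under 0.05 from limma, a linear model fitted to the log2 intensities of 8918 genes at once, and changes are given on the log2 scale with their standard error (SE). With bulk RNA, fewer cells of a type and less RNA per cell cannot be told apart.

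The sorted cells carried their defining markers on every array, with Cd3e between 5267 and 7955. Foxp3 intensity was 3442 and 3321 in M176 Tregs, and elsewhere it ranged from 5233 to 6163. Markers of B cells (13 of 16 measured) summed to 5014 on replicate 2 of the WT Tregs against 2427 on replicate 1, and Cd79a, a part of the B cell receptor, read 398.6 against 93.8. The other Treg arrays lay between 2212 and 2635, and the transduced cells between 4405 and 4930. Markers of CD8 T and NK cells (7 of 7) summed to between 1576 and 3206 in Tregs and between 4053 and 4987 in transduced cells. Array intensities have no true zero, so no marker can be called absent. The part of these cells in the results was not tested.

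Tregs with M176 Foxp3 had higher levels of many proteasome genes than Tregs with WT Foxp3. Of the 35 tested genes, 19 were called higher and 0 lower, which is 54.3%, while 24.7% of all tested genes were called in either direction and 13.4% were called higher. The median change of the 35 was 0.512, and that of all tested genes was -0.043. In 29 of the 35, both M176 arrays lay above both WT arrays, as in 30.3% of all tested genes. The calls fell in every part of the particle: 5 of 7 alpha subunits, 2 of 6 beta subunits, 2 of 5 ATPases, 1 of 2 other base subunits, 5 of 5 lid subunits, 1 of 3 chaperones of the base, 2 of 3 chaperones of the core and 1 of 2 activators. The inhibitor Psmf1 and Psme3ip1, which binds an activator, were not called, at 0.11 and 0.01.

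**Figure D1:**
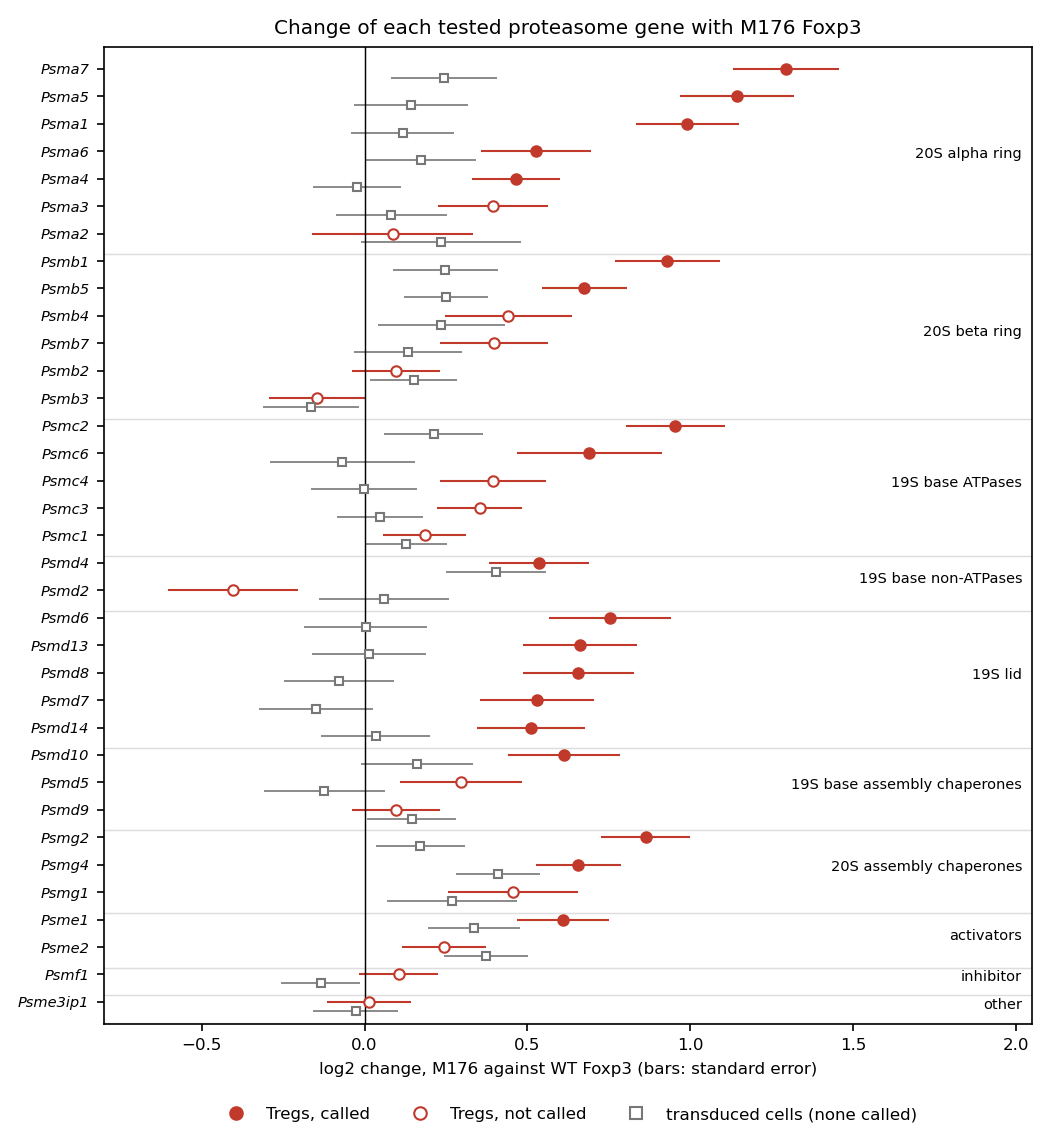
Log2 change with M176 against WT Foxp3 (horizontal axis, bars are 1 SE) for each of the 35 tested genes, ordered by part of the proteasome, in Tregs (circles, filled where called) and in transduced cells (squares). In Tregs 19 circles are filled, led by Psma7 at 1.29, while no square is called and the highest stands at 0.41.

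The largest changes were in the alpha ring. Psma7 read 205 and 204 on the 2 WT Treg arrays, 166 and 212 in M354 Tregs and 539 and 468 in M176 Tregs, so that both M176 arrays stood above all other Treg arrays. It rose by 1.29 (SE 0.16, adjusted p = 3.9e-05) in M176 against WT Tregs, a 2.45-fold change. Psma5 read 149 and 188 in WT Tregs, 178 and 262 in M354 Tregs and 394 and 348 in M176 Tregs, and rose by 1.14 (SE 0.18, adjusted p = 0.000231). Psma1 read 727 and 884 in WT Tregs, 934 and 866 in M354 Tregs and 1568 and 1621 in M176 Tregs, and rose by 0.99 (SE 0.16, adjusted p = 0.000324). For these 3 subunits of the gate the M176 arrays did not overlap the other Treg groups. Psma6, at 858 and 900 in WT and 1249 and 1283 in M176 Tregs, rose by 0.53. Psma4, at 674 and 669 in WT and 986 and 870 in M176 Tregs, rose by 0.46. Psma3 at 0.39 missed the threshold (adjusted p = 0.099), and Psma2 changed by 0.09 (95% interval -0.43 to 0.61).

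In the beta ring the catalytic subunits did not all pass. Psmb5, the subunit with chymotrypsin-like activity, read 1900 and 1734 in WT Tregs, 1735 and 2010 in M354 Tregs and 2741 and 3067 in M176 Tregs. It rose by 0.68 (SE 0.13, adjusted p = 0.00125), with both M176 arrays above every other array of the series. Psmb7, with trypsin-like activity, read 466 and 493 in WT Tregs, 543 and 512 in M354 Tregs and 631 and 632 in M176 Tregs, a change of 0.40 that was not called (adjusted p = 0.089). Psmb1, a subunit without catalytic activity, read 548 and 665 in WT Tregs, 626 and 569 in M354 Tregs and 1077 and 1230 in M176 Tregs, and rose by 0.93 (SE 0.16, adjusted p = 0.000589). Psmb2 lay at 2586 and 2388 in WT and 2744 and 2572 in M176 Tregs, where the arrays overlap, and its change of 0.10 had a 95% interval from -0.19 to 0.38. Psmb3 changed by -0.15 (adjusted p = 0.496). The probe set of Psmb3 lies among probe sets of chromosome 16 (17 of its 20 neighbours in the table), whereas the gene is on chromosome 11, so it may read a near-identical copy and is uncertain. The same holds for Psma3 (chromosome 12), whose brightest probe set lies among those of chromosome 6 (19 of 20); its probe set among those of chromosome 12 gave 0.352.

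Of the ATPases, Psmc2 read 173 and 158 in WT Tregs, 160 and 209 in M354 Tregs and 330 and 312 in M176 Tregs. It rose by 0.95 (SE 0.15, adjusted p = 0.000315). Psmc6 rose by 0.69 (SE 0.22, adjusted p = 0.0321) with WT arrays that were far apart, at 404 and 729, against 852 and 899 in M176 Tregs. Psmc4 (0.39), Psmc3 (0.35) and Psmc1 (0.18) were not called. For Psmc1 (chromosome 12), a second and dimmer probe set gave 0.519, so its probe sets disagree. That second set lies among probe sets of chromosome 16 (20 of 20), so its value is uncertain, while the brightest lies among those of chromosome 12. Psmd4, the ubiquitin receptor of the base, read 304 and 295 in WT Tregs, 234 and 334 in M354 Tregs and 438 and 431 in M176 Tregs, and rose by 0.54 (adjusted p = 0.017). Psmd2, the scaffold subunit to which shuttle factors dock, went the other way without passing the test on all 12 arrays. It lay at 1438 and 1437 in WT Tregs, 995 and 1836 in M354 Tregs and 1103 and 1070 in M176 Tregs, a change of -0.40 (adjusted p = 0.149). Its 2 M354 arrays lie on either side of both other groups. When either M354 Treg array was left out, Psmd2 was called lower in M176 than in WT Tregs, at the same change of -0.40.

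The lid was the part in which each tested member was called. Psmd14, the deubiquitinase that removes ubiquitin chains from substrates, read 1659 and 1944 in WT Tregs, 1937 and 1944 in M354 Tregs and 2530 and 2592 in M176 Tregs. It rose by 0.51 (SE 0.17, adjusted p = 0.0334), but not after quantile normalization of the arrays (adjusted p = 0.164) or cyclic loess normalization (0.0501). Psmd6 read 233 and 318 in WT Tregs and 484 and 436 in M176 Tregs and rose by 0.75. Psmd13 (363 and 410 in WT, 606 and 614 in M176 Tregs) and Psmd8 (935 and 895, 1466 and 1420) rose by 0.66 each. Psmd7, the partner of Psmd14 in the lid, rose by 0.53, from 334.4 and 353.8 to 517 and 477. Psmd7 was also lost after both normalizations, at 0.085 and 0.0546. In all 5, both M176 arrays stood above both WT arrays, and above both M354 arrays as well.

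Among the assembly factors, Psmg2, which with Psmg1 starts the alpha ring, read 389 and 408 in WT Tregs, 442 and 459 in M354 Tregs and 746 and 704 in M176 Tregs. It rose by 0.86 (SE 0.14, adjusted p = 0.000296). Psmg4, a further chaperone of the alpha ring, read 275 and 262 in WT and 430 and 417 in M176 Tregs and rose by 0.66 (SE 0.13, adjusted p = 0.00151). Psmg1 changed by 0.46 (adjusted p = 0.103). Of the base chaperones, Psmd10 (gankyrin) read 376 and 391 in WT and 588 and 584 in M176 Tregs and rose by 0.61, and Psmd5 and Psmd9, at 0.30 and 0.10, were not called. Psme1 and Psme2 encode both subunits of the interferon-inducible activator that caps the core in place of the 19S particle. Psme1 read 1952 and 1714 in WT Tregs, 1804 and 2042 in M354 Tregs and 2891 and 2695 in M176 Tregs, and rose by 0.61 (SE 0.14, adjusted p = 0.00501). It stood at the threshold after quantile normalization (adjusted p = 0.05). Psme2 read 2477 and 2313 in WT and 2803 and 2870 in M176 Tregs; its change of 0.24 was not called (adjusted p = 0.173).

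**Figure D2:**
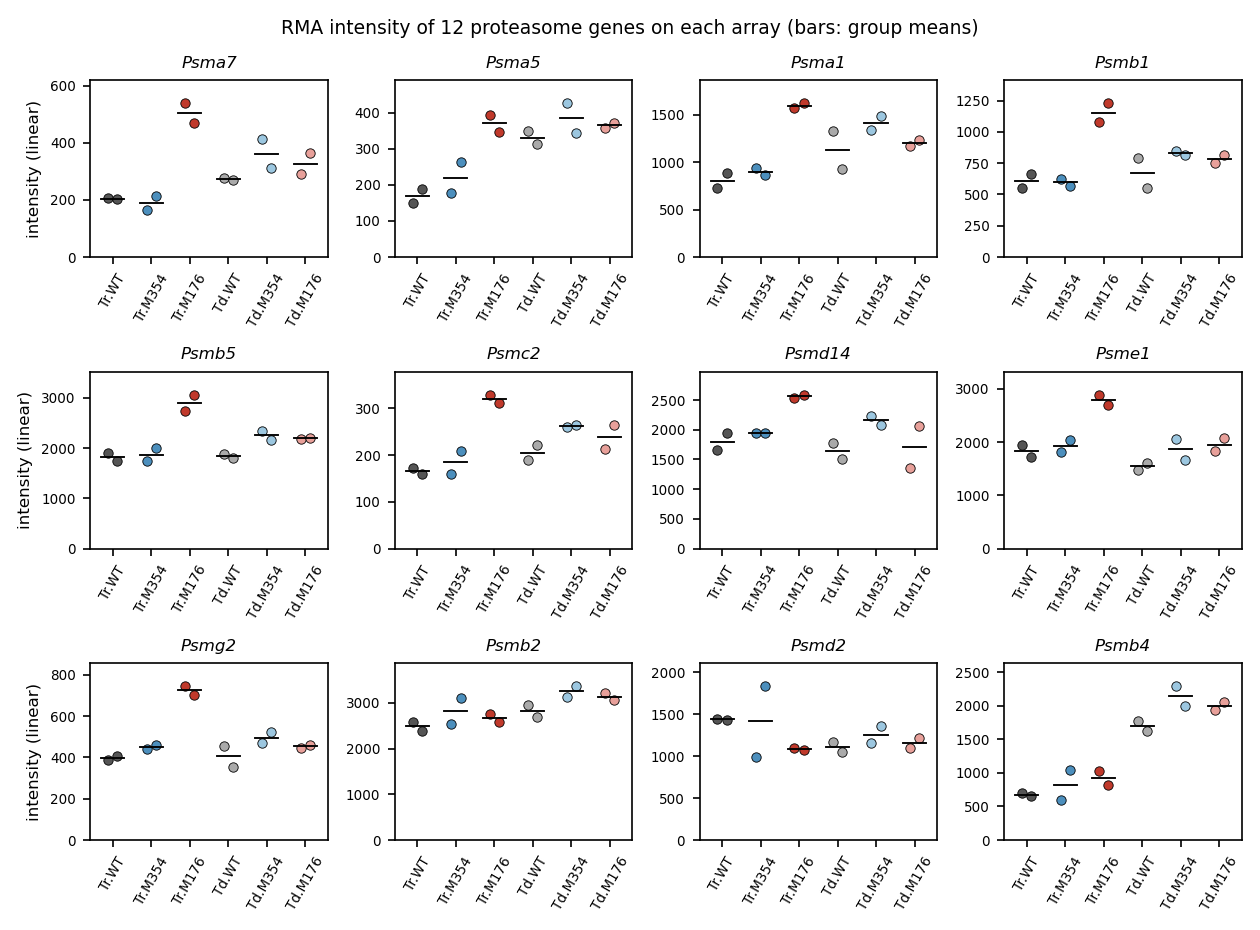
RMA intensity (linear scale, vertical axis from 0) of 12 proteasome genes on each of the 12 arrays, by group, with each group's mean as a bar. For Psma7, Psma1, Psmb1, Psmb5, Psmc2, Psmd14, Psme1 and Psmg2 both M176 Treg arrays lie above the arrays of all other groups. Psma5, Psmb2 and Psmd2 do not show this, and Psmb4 is set apart by cell type.

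With 2 arrays a group, single arrays decided several calls in M176 against WT Tregs. Psma1, Psma5, Psma7, Psmb1, Psmb5, Psmg2 and Psmg4 were called in each of the 7 other settings and with each of the 12 arrays left out. Psmc2 was called with each array left out and in the 6 other settings that tested it, since it was too dim for the filter at percentile 75. Without replicate 1 of the M176 Tregs 8 genes were called, and 11 lost the call (Psma4, Psma6, Psmc6, Psmd4, Psmd6, Psmd7, Psmd8, Psmd10, Psmd13, Psmd14 and Psme1; adjusted p from 0.0624 to 0.201). Without their replicate 2, 12 were called, and Psma6, Psmc6, Psmd4, Psmd7, Psmd10, Psmd13 and Psmd14 lost it (0.0577 to 0.126). Without replicate 1 of the WT Tregs 10 were called. Those lost were Psma4, Psma6, Psmc6, Psmd4, Psmd6, Psmd7, Psmd10, Psmd13 and Psmd14 (0.057 to 0.442, the highest for Psmc6). Without replicate 2 of the WT Tregs, the array with the higher B cell markers, 13 were called and the median change was 0.514; Psma4, Psma6, Psmd4, Psmd7, Psmd8 and Psme1 were lost (0.051 to 0.0801). Quantile normalization gave 16 higher and 1 lower (Psmb3, -0.48), and it changed the split of all called genes from 1196 higher of 2207 to 1125 of 2576.

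Genes that work with the proteasome were read in the same comparison of M176 with WT Tregs. All 3 immunoproteasome genes rose, in every setting and with every array left out. Psmb10 read 1298 and 1046 in WT, 1188 and 1160 in M354 and 2982 and 2948 in M176 Tregs and rose by 1.35 (SE 0.15, adjusted p = 1.3e-05), Psmb8 rose by 1.03 and Psmb9 by 0.87. Of 14 tested partners and receptors of the proteasome, 7 rose and 1 fell, against 24.7% of all tested genes called in either direction in this comparison. The 7 were Sem1, a small lid subunit (1.36), Pithd1 (0.89), Zfand5, a proteasome activator (0.80), Pomp, the maturation factor of the core (0.72), the thioredoxin-like Txnl1 (0.67), the shuttle factor Ubqln1 (0.67) and the deubiquitinase Usp14 (0.43). Zfand2a, an arsenite-inducible partner, fell by 0.70. Usp14 lost its call with 7 of the arrays left out, among them replicate 1 of the WT Tregs (adjusted p = 0.372), and after quantile normalization (0.0644), no filter (0.0582) and the replicate block (0.0594). Txnl1 lost it without replicate 1 of the M176 Tregs (0.0594).

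Of 12 listed genes linked to the transcription of proteasome genes, 7 were measured and 6 tested. Nfe2l1 is not among the 6, and no value for it is given here. Of the 6, 1 was called, a share below the 24.7% of all tested genes. Nfe2l2, the transcription factor of the oxidative stress response, read 526 and 556 in WT Tregs and 797 and 678 in M176 Tregs and rose by 0.44 (adjusted p = 0.0413). It was not called without either array of both groups (0.0519 to 0.302), with no filter (0.0524) or with the replicate block (0.055). After quantile or cyclic loess normalization 2 of the 6 were called lower beside Nfe2l2. Of 9 tested genes of the segregase Vcp and its cofactors, 3 rose and 1 fell, and Vcp itself changed by 0.03; with quantile normalization 1 rose and 1 fell. The calls of Faf1, Nsfl1c and Ubxn1 (higher) and Nploc4 (lower) were each lost without replicate 1 of the M176 Tregs (adjusted p from 0.137 to 0.24) and without either array of the WT Tregs (0.0554 to 0.3). The chaperonin TRiC, which folds actin and tubulin, had 6 of 6 tested subunits called higher, from 0.58 to 0.85, also after both normalizations. Of these, Cct3, Cct6a and Cct8 lost the call without replicate 1 of the M176 Tregs (0.0838 to 0.246) and without 1 of the WT Treg arrays (replicate 2 for Cct3, 0.0592, and replicate 1 for the others, 0.0754 and 0.18). Among 8 tested autophagy adaptors, Gabarapl2 (1.02) and Map1lc3b (0.55) rose and Calcoco1 fell by 0.66, so that 3 of 8 were called beside 24.7% of all tested genes. Map1lc3b was lost without either M176 Treg array (0.182 and 0.0619), without replicate 2 of the WT Tregs (0.15) and after quantile normalization (0.0587), and Gabarapl2 with the mean of its probe sets (0.0911). Uba6, the only tested gene for ubiquitin or its activation, was not called. In M354 against WT Tregs Psmb10 changed by 0.01 (95% interval -0.31 to 0.33) and Psmb8 by 0.14 (-0.19 to 0.47).

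On the Treg arrays the change of the proteasome genes moved together with other classes of RNA. The mean log2 intensity of the 35 genes was 9.73 and 9.67 in M176 Tregs, and the other 4 arrays of Tregs spanned 9.12 to 9.36. Over 36 small nucleolar and Cajal body RNAs the mean was 9.98 and 10.04 in M176 Tregs, against 8.66 to 8.87 on the other Treg arrays. Ribosomal protein genes (56) averaged 11.56 and 11.55, against 10.67 to 10.96. Proliferation genes (19) moved the other way, with 7.70 on both M176 arrays against 8.39 to 9.24. Hspa1a, a heat shock protein, read 984 and 1135 in M176 Tregs and at most 153 elsewhere. On the transduced arrays the small nucleolar and Cajal body RNAs differed between replicates. They averaged 8.61 and 9.18 with WT, 9.64 and 8.75 with M354 and 8.86 and 9.46 with M176 Foxp3. The proteasome genes averaged 9.47 and 9.37, 9.73 and 9.61, and 9.41 and 9.66 in the same order. The part of these classes and of Hspa1a in the change of the proteasome genes was not tested.

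**Figure D3:**
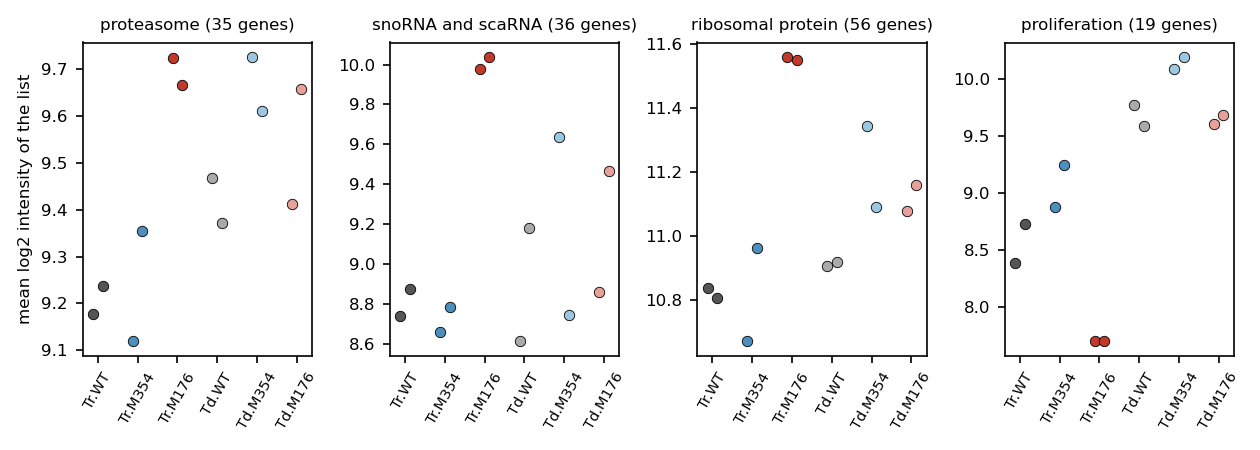
Mean log2 intensity per array (vertical axes, each with its own range that does not start at 0) of the 35 proteasome genes, 36 small nucleolar and Cajal body RNAs, 56 ribosomal protein genes and 19 proliferation genes, with 2 points per group. The M176 Treg arrays are the highest Treg arrays in the first 3 lists and the lowest of all arrays for proliferation, at 7.70.

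Promoter sequences from RefSeq (GRCm38.p6, 250 bases before to 50 after the start of transcription) were matched to 32 of the 39 genes, 29 of them tested. The core of the antioxidant response element, the kind of site that Nfe2l1 and Nfe2l2 bind, was searched on both strands as TGACNNNGC and TGAGNNNGC, which cannot start at the same base. TGAGNNNGC was in 10 of the 29 (34.5%), against 19.8% of all 27025 genes and 22.5% of the tested ones. It was in 8 of the 16 genes called higher in M176 Tregs (Psma4, Psma5, Psma6, Psma7, Psmc2, Psmc6, Psmd13 and Psmg4) and in 2 of the 13 that were not (Psmb3 and Psmd5). TGACNNNGC was in 3 of the 29 (Psmb5, Psmc6 and Psmd9; 10.3%), against 14.0% and 16.7%. The NF-Y motif CCAAT was in 12 (41.4%, against 41.1% of all and 42.6% of tested genes), and the ETS motif CCGGAAG in 10 (34.5%, against 9.93% and 21.6%). The heat shock pairs TTCNNGAA and GAANNTTC are each their own reverse complement and were in 1 and 2 (3.45% and 6.9%, against 7.94% and 7.09% of tested genes). Of the 16 called and the 13 other genes, TGACNNNGC was in 2 and 1, CCAAT in 7 and 5, and CCGGAAG in 6 and 4. TTCNNGAA was in 1 and 0, and GAANNTTC in 1 and 1. Of the called genes with TGAGNNNGC, Psma4, Psma6, Psmc6 and Psmd13 lost the call without replicate 1 of the M176 Tregs. The share among all called genes was not computed and no split was tested. These matches are a description of letters and show no binding. The 150 bases before the start are given for 3 called genes that hold a core (Psmb5, Psma4, Psmg4), 1 called gene with none in this window (Psma1) and 1 gene that holds a core and was not called (Psmd9), chosen after their values were seen. Capitals mark the core, which lies at position -47 in Psmb5, -127 in Psma4, -27 in Psmg4 (on the opposite strand) and -31 in Psmd9, counted back from the start. Psma4 holds another core at position 24 after the start, not shown.
Psmb5, chr14:54617996-54618145, minus strand: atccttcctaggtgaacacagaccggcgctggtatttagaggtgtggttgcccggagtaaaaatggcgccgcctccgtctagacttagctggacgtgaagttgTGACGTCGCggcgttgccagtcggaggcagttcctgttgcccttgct
Psma4, chr9:54950709-54950858, plus strand: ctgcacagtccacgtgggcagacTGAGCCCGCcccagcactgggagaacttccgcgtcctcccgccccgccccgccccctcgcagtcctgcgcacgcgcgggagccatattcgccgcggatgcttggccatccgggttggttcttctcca
Psmg4, chr13:34162814-34162963, plus strand: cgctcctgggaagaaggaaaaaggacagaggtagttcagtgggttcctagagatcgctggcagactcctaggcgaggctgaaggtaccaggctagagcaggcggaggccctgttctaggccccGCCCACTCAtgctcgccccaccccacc
Psma1, chr7:114276117-114276266, minus strand: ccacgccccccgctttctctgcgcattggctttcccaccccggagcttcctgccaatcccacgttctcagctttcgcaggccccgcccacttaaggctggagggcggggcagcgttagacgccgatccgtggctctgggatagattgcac
Psmd9, chr5:123228040-123228189, plus strand: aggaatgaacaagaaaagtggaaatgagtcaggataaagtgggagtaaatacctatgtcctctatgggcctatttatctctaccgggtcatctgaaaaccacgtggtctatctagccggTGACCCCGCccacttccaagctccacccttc

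Tregs with M354 Foxp3 did not show a called change in any proteasome gene against WT Tregs. Limma called 0 of the 35, and the median change was 0.040 (all tested genes: -0.045, with 1.81% called). Its unadjusted p was under 0.05 for 0 of the 35 and for 11.1% of all tested genes. Both M354 arrays lay above both WT arrays in 4 of the 35, as in 13.1% of all tested genes. The lowest adjusted p was 0.457, for Psma5, at 0.37 with a 95% interval from -0.003 to 0.74. Psma7 changed by -0.13 (-0.47 to 0.22), Psmb1 by -0.02 (-0.36 to 0.32) and Psmb5 by 0.04 (-0.23 to 0.31). The M354 Treg arrays differed from each other: replicate 2 lay above replicate 1 in 30 of the 35 genes, as in 61.1% of all tested genes, with a median difference of 0.212. Without replicate 1 the median change was 0.144, and without replicate 2 it was -0.061. The split of all called genes was 79 higher of 161, and 141 of 221 after cyclic loess normalization.

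Both mutants were also compared directly, with the same M176 arrays as above. Of the 35 genes, 20 were called lower in M354 than in M176 Tregs and 0 higher (57.1%), while 30.8% of all tested genes were called and 18.1% were called lower. The median difference was -0.499, and -0.022 over all tested genes. The largest differences were Psma7 (-1.42, SE 0.16, adjusted p = 9e-06), Psmb1 (-0.95) and Psmc6 (-0.94), followed by Psma1 (-0.83), Psmc2 (-0.81) and Psma5 (-0.78). Psmc6 read 520 and 400 in M354 Tregs against 852 and 899 in M176 Tregs. By part, 6 of 7 alpha subunits, 2 of 6 beta subunits, 3 of 5 ATPases, 3 of 5 lid subunits and 2 of 3 core chaperones were called lower. In 28 of the 35 genes both M354 arrays lay below both M176 arrays. The share of all tested genes that did so was not computed here, so this count is a description only. Quantile normalization gave 14 lower and 2 higher, Psmb2 and Psmb3, and cyclic loess gave 14 lower. With quantile normalization the split of all called genes went from 1129 higher of 2747 to 1585 of 3027.

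In this comparison too, arrays decided calls. Without replicate 1 of the M354 Tregs 10 genes were called, of which 9 were lower and Psmd2 was higher (0.76). Psma3, Psma4, Psma5, Psma6, Psmc4, Psmd4, Psmd5, Psmd6, Psmd10, Psmd13 and Psme1 lost the call there, at adjusted p from 0.0863 to 0.349. Without their replicate 2, Psma4, Psmc6 and Psmd10 lost it (0.0512 to 0.0546). Without replicate 1 of the M176 Tregs 11 were called, and Psma3, Psma4, Psma6, Psmc4, Psmd5, Psmd6, Psmd10, Psmd13 and Psme1 were lost (0.073 to 0.26). Without their replicate 2, Psma3, Psma4, Psma6, Psmd10 and Psmd13 were lost (0.0569 to 0.115).

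In conventional T cells transduced with the same alleles 0 of the 35 genes were called. For M176 against WT Foxp3 the median change was 0.134, and limma called 0.516% of all tested genes. Its unadjusted p was under 0.05 for 4 of the 35 and for 5.91% of all tested genes. The 4 were Psmg4 (0.41), Psmd4 (0.40), Psme2 (0.37) and Psme1 (0.34). Both M176 arrays lay above both WT arrays in 12 of the 35, as in 13.4% of all tested genes. Psma7 read 278 and 270 with WT, 289 and 364 with M176 and 412 and 310 with M354 Foxp3. Its M176 change was 0.24 (95% interval -0.10 to 0.59), with both M176 arrays above both WT arrays. Psma5 read 349 and 313 with WT, 358 and 372 with M176 and 427 and 344 with M354 Foxp3. Psma1, at 1325 and 926, 1171 and 1233, and 1333 and 1487 in the same order, had WT arrays on either side of the M176 arrays. Psmb5 read 1888 and 1805 with WT, 2189 and 2200 with M176 and 2347 and 2160 with M354 Foxp3, so that both mutants lay above WT, at 0.25 and 0.29. Psme1 read 1478 and 1603, 1827 and 2068, and 2061 and 1660, and Psme2 2272 and 2099, 2944 and 2719, and 2896 and 2508. Neither activator gene overlapped between M176 and WT. Psmd4 read 384 and 395 with WT, 475 and 560 with M176 and 459 and 428 with M354 Foxp3. In these cells replicate 2 of M176 lay above replicate 1 in 31 of the 35 genes, as in 44.7% of all tested genes, with a median difference of 0.220. Without replicate 1 the median change was 0.191, and without replicate 2 it was 0.011. Without replicate 1 or 2 of the WT-transduced cells it was 0.198 or 0.057.

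For M354 against WT Foxp3 in transduced cells, 32 of the 35 changes were above 0 and their median was 0.265, against 0.012 for all tested genes. None was called, while 1.33% of all tested genes were. Unadjusted p was under 0.05 for 11 of the 35 and for 11.4% of all tested genes, and the lowest adjusted p was 0.182. That gene was Psmg4, which read 246 and 248 with WT, 360 and 294 with M354 and 326 and 331 with M176 Foxp3, a change of 0.40 (95% interval 0.12 to 0.67). Psmd14 read 1776 and 1508 with WT, 2233 and 2083 with M354 and 1361 and 2064 with M176 Foxp3, where replicate 1 of M176 was the lowest of all 12 arrays. Psmb7 read 515 and 435 with WT, 734 and 514 with M354 and 458 and 589 with M176 Foxp3, and its M354 replicates differed most. Both M354 arrays lay above both WT arrays in 21 of the 35 genes, as in 20.2% of all tested genes. Without replicate 2 of M354, Psmg1 was called (0.94, adjusted p = 0.0218). M354 against M176 called 0 of the 35, with 0.0785% of all tested genes called and a median difference of 0.135. Unadjusted p was under 0.05 for 1 of the 35 (Psmd14, 0.36) and for 5.18% of all tested genes.

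**Figure D4:**
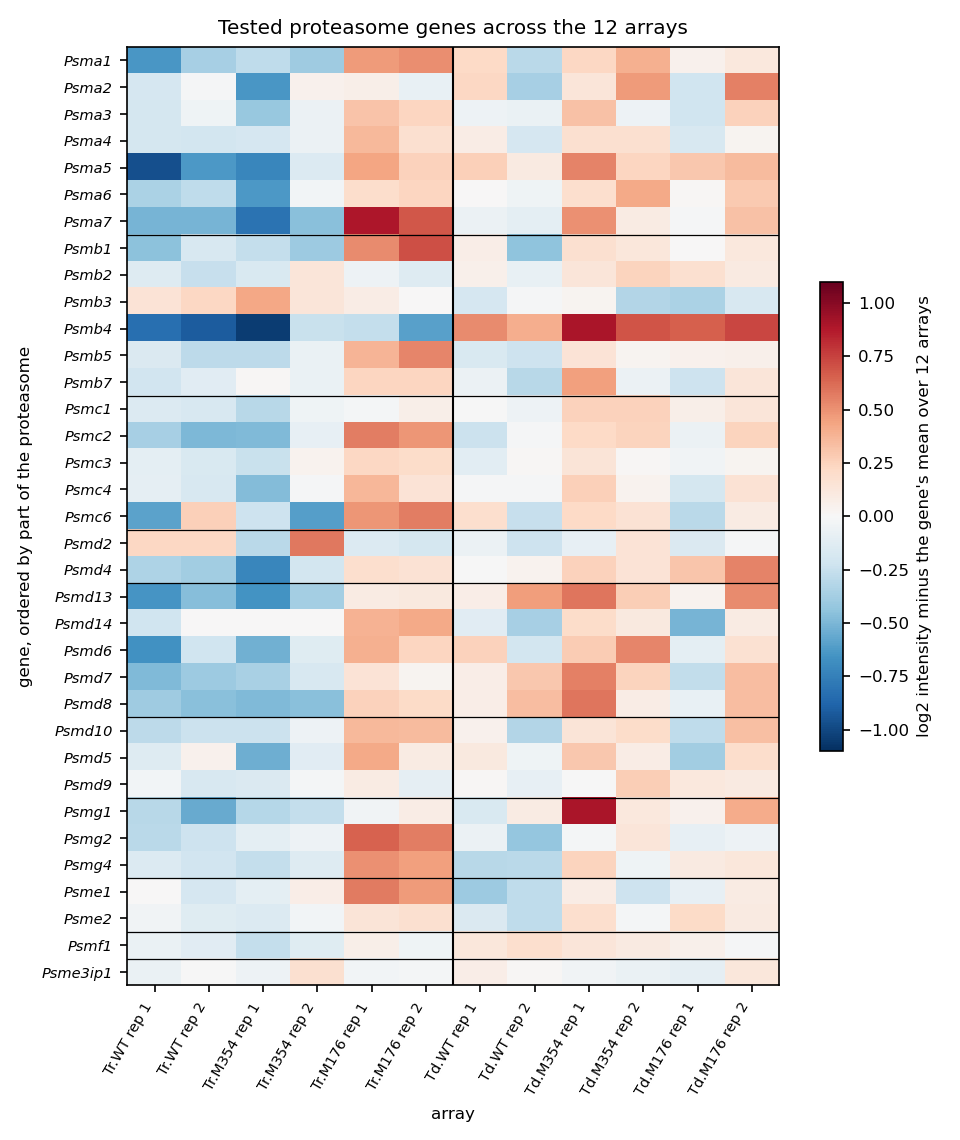
Log2 intensity of the 35 tested genes (rows, ordered by part of the proteasome) on the 12 arrays (columns, Tregs left and transduced cells right of the black line), each row minus its own mean. M176 Tregs are red in most rows and WT and M354 Tregs blue, but not in all. Both M176 Treg arrays of Psmb2 and Psmb4 lie below the row's mean, and Psmb3 and Psmd2 run against the others. Replicate 2 of Tr.M354 and of Td.M176 is higher than replicate 1 in 30 and 31 rows.

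Whether M176 acted differently in Tregs and in transduced cells was tested as the difference between both changes. The difference was called for 4 of the 35 genes, all with the higher change in Tregs, while 5.47% of all tested genes were called and 4.01% were called higher. It was 1.05 for Psma7 (1.29 in Tregs, 0.24 in transduced cells; adjusted p = 0.0134), 1.002 for Psma5 (1.14 and 0.14; adjusted p = 0.0262), 0.87 for Psma1 (0.99 and 0.12; adjusted p = 0.0304) and 0.69 for Psmg2 (0.86 and 0.17; adjusted p = 0.0449). The median over the 35 was 0.352, and -0.019 over all tested genes. Psme2 had the smaller change in Tregs, with a difference of -0.13 (95% interval -0.51 to 0.25), and that of Psmd4 was 0.13 (-0.33 to 0.59). No call held throughout: 0 genes were called without replicate 1 of the M176 Tregs (adjusted p of the 4 from 0.0899 to 0.19) or without replicate 1 of M176-transduced cells (0.0912 to 0.148). Without replicate 1 of the WT Tregs Psma7 was the only call. Psma5 and Psma1 were also lost without replicate 2 of M176-transduced cells (0.0523 and 0.0539) or replicate 1 of WT-transduced cells (0.0693 and 0.115), and Psma1 without replicate 2 of the M176 Tregs (0.0808). Psmg2 was lost with 10 of the arrays left out (0.0501 to 0.19), with the replicate block (0.0648) and with no filter (0.0558). With quantile normalization the split of all called genes went from 358 higher of 488 to 320 of 540. For M354 the difference between both kinds of cell was called for 0 of the 35 (1.08% of all tested genes), with a median of -0.238. Unadjusted p was under 0.05 for 2 of the 35, beside 8.1% of all tested genes.

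WT Tregs were lower than WT-transduced T cells in 6 of the 35 genes (17.1%) and higher in 0. Of all tested genes 30.2% were called and 19.4% were called lower, so the share of the members does not exceed that of all tested genes. Psmb4, a structural subunit of the beta ring, read 696 and 655 in WT Tregs and 1773 and 1627 in WT-transduced cells, a difference of -1.33 (SE 0.20, adjusted p = 6.3e-05). It lay between 598 and 1043 on all 6 Treg arrays and between 1627 and 2296 on all 6 arrays of transduced cells. Psma5 differed by -0.98 (149 and 188 against 349 and 313) and Psmd13 by -0.83 (363 and 410 against 597 and 783). Psmd8 (-0.63; 935 and 895 against 1289 and 1555), Psmd7 (-0.62; 334.4 and 353.8 against 490 and 574) and Psma1 (-0.47; 727 and 884 against 1325 and 926) were the others. The groups did not overlap in any of the 6. Since the 6 were picked by their call on the same arrays, this is a description only. Psmb5, at -0.02 (95% interval -0.30 to 0.25), and Psmb7, at 0.02 (-0.33 to 0.37), were not called.

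The direction of the whole set between both kinds of cell hung on the scaling. The median of the 35 was -0.128 and that of all tested genes -0.076. After quantile normalization these were 0.022 and 0.029, with 4 genes called lower and Psmb3 higher, and the split of all called genes went from 968 higher of 2695 to 1302 of 2608. Psma1 and Psmd7 lost the call there (0.0844 and 0.0802) and after cyclic loess (0.0754 and 0.0592). Psma1 was also lost without replicate 1 of the WT-transduced cells (0.429), Psmd8 and Psmd7 without their replicate 2 (0.0694 and 0.0716), and Psma1 and Psmd7 without replicate 1 of the WT Tregs (0.272 and 0.075). Proliferation genes averaged 8.39 and 8.73 in WT Tregs and 9.77 and 9.59 in WT-transduced cells, and the part of that difference was not tested.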

How the data were processed

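RNA of 12 samples, amplified with the Ambion WT Expression Kit, was measured on Affymetrix Mouse Gene ST 1.0 arrays. The authors ran RMA in Affymetrix Power Tools, per the submitters' processing notes, and the deposited values are intensities on a linear scale; the genome build is not given in the sources used here. Array medians lay between 101.53 and 117.37, no depth exists for an array, and 2 arrays a group limit the precision. Of 20716 probe sets, 17703 named 1 gene, 1246 several and 1767 none; for 734 genes the brightest of several was taken, giving 16426 genes. Genes above the median of their array on at least 2 of 12 arrays (8918) were fitted on the log2 scale with limma 3.58.1 in R 4.3.3, with 6 group means and all 12 arrays (6 residual degrees of freedom, prior 10.9), in 9 comparisons. Calls used Benjamini-Hochberg adjusted p under 0.05 over all tested genes. The code of the fit was run on simulated data with independent noise for each gene. This does not show how the calls hold on these arrays. Alternatives were quantile and cyclic loess normalization, no filter or percentile 75, the mean of a gene's probe sets, an intensity trend, a replicate block, and each array left out. The named-gene rule gave array values for up to 6 called members a direction and comparison, catalytic subunits, activators, Psmd4 and Psmd14. Array values of further members (such as Psmb2, Psmd2 and Psmd6), Hspa1a and Cd79a were added after they were seen. The members and lists were chosen with earlier results of these data known.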

Additional observations from a re-analysis of the deposited data

Results flagged for a closer look

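The effect of M176 was flagged as different between Tregs and transduced cells in 15 genes, by limma's test of the difference (adjusted p under 0.05). Tested here were 82 genes, 35 members and 47 of the other lists. Maff, among the 15, passed the filter only through the group that makes its difference, so no share of the 82 is given. Called were 4 of 35 members (11.4%), 2 of 3 immunoproteasome genes, 5 of 14 partners, 2 of 6 chaperonin subunits and 1 of 8 autophagy adaptors. Of 9 segregase genes 0 were called, and 0 of 1 for ubiquitin. Over all tested genes 5.47% were called and 4.01% were called higher. Differences are log2, Treg change minus transduced change. Proteasome members were Psma7 (1.05), Psma5 (1.002), Psma1 (0.87) and Psmg2 (0.69). Immunoproteasome subunits were Psmb10 (1.17), at 1.35 in Tregs and 0.18 in transduced cells, and Psmb8 (0.79). Partners of the proteasome were Sem1 (1.22), Zfand5 (0.86), Txnl1 (0.84), Pomp (0.82) and Ubqln1 (0.73). The chaperonin subunits Tcp1 (0.84) and Cct5 (0.72) and the autophagy adaptor Gabarapl2 (0.78) followed.

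The transcription factor gene Maff (0.77) entered the test only through its WT-transduced arrays, at 140 and 125. The other 10 arrays read 68.5 to 99.8, below the lowest array median of 101.53, so its difference rests on the group that let it pass the filter and is given as a value only.

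Of the 15, Psmb10 held in every setting and with every array left out. The other 14 were each lost without replicate 1 of the M176 Tregs (adjusted p from 0.0899 to 0.22) and without replicate 1 of M176-transduced cells (0.0591 to 0.213). Without replicate 1 of the WT Tregs 12 were lost (up to 0.174), and without replicate 1 of WT-transduced cells or replicate 2 of the M176 Tregs 10 each (up to 0.167 and 0.0882). The replicate block lost 6 (0.0501 to 0.0648) and quantile normalization 3. Gabarapl2 was lost with the mean of its probe sets (0.985).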

How the results depend on the processing

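Over the left-out arrays, the number of members called ranged from 8 to 22 for M176 against WT Tregs (19 with all arrays), 10 to 21 for M354 against M176 Tregs (20), 0 to 6 for the M176 difference between cell types (4), 4 to 8 for WT Tregs against WT-transduced cells (6) and 0 to 1 for M354 against WT in transduced cells (0, and 1 without replicate 2 of M354); in the 4 other comparisons it stayed at 0. With the replicate block these counts were 19, 19, 3, 6 and 0. Of 15 pairs of groups, 3 had deviations between replicates 1 and 2 correlated over 0.1 (range -0.551 to 0.251). The replicate numbers may be in any order, so this cannot decide whether the samples are paired. Of the 49 calls of members, 39 remained after cyclic loess, 38 after quantile normalization, 48 with no filter, 47 with the replicate block, 47 of 47 tested at percentile 75, and 49 with the mean of probe sets or an intensity trend. Leaving out replicate 1 of the M176 Tregs kept 25, fewer than any other array. No called change reversed sign. Signal over background limits Psma8, Psmb11, Psmg3 and Psmc3ip, which were not tested, and 2 arrays a group limit all the comparisons.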

Other observations

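Across the 12 arrays most proteasome genes varied together. The correlation of each of the 35 with the mean of the other tested members had a median of 0.792, over 0.8 for 15 genes and under 0.5 for 5. The highest were Psma7 (0.939), Psmc2 (0.917) and Psma6 (0.910), and those below 0 were Psmd2 (-0.250) and Psmb3 (-0.552). These correlations share arrays, groups and scaling, and the median over all other tested genes with the members' mean was 0.144.

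The genes outside the set whose pattern was most like the members' mean over the 12 arrays were Rpa3, a subunit of the single-strand DNA binding protein RPA (r = 0.986), the translation factor Eif1ax (0.984), the mitochondrial ribosomal protein Mrpl13 (0.977), the mitochondrial thiolase Acat1 (0.974) and Dpy30, a subunit of histone methyltransferases (0.971). Rpa3 read 151 and 157 in WT Tregs, 143 and 186 in M354 Tregs and 392.2 and 358.4 in M176 Tregs. Acat1 read 337 and 365, 265 and 388, and 837 and 744 in the same order.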
